A study of Danio rerio with 8 samples.

Results

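The genes of sterol and fatty acid synthesis were compared between the cornea and the epidermis of adult zebrafish. They were taken from a list of 34 gene symbols of the mevalonate and cholesterol pathway, its regulators, and fatty acid synthesis and desaturation, together with every symbol that begins with elovl followed by a family number, or with fads. Of the 34 symbols, 7 had no probe under that name: acaca, fasn, ldlra, sqlea, srebf1, acly and mvd. The current name of mvd is mvda, which was already on the list, and acly is now aclya, which is given with the related genes. In all, 39 genes with 58 probes were measured, out of 14462 genes with a named probe and 45220 features on the array.

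Both tissues came from untreated adults of the AB2O2 wild type strain, and RNA of many fish was pooled for each biological repeat. The cornea was taken with forceps from removed eyes, and how free it was of other tissue is not stated. The epidermis was collected on scales scraped from the body, so that scale cells and other skin cells came with it. Cornea and epidermis RNA were hybridised together on 2-colour Agilent arrays in 4 biological repeats, each on 2 arrays with the dyes exchanged. Repeats 1 and 2 were on slide 1, and repeats 3 and 4 were on slide 2.

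Cholesterol is made from acetyl-CoA in a long chain of steps. The mevalonate arm builds isoprenoid units and joins them to farnesyl diphosphate, and the sterol arm turns farnesyl diphosphate into squalene, closes the rings and then trims and reduces them. When membrane sterol is low, SCAP carries the transcription factor SREBP2 out of the endoplasmic reticulum and the enzyme genes of both arms are switched on together, whereas INSIG proteins hold the complex back when sterol is plentiful. Fatty acids are lengthened by elongases of the ELOVL family and receive double bonds from desaturases. In mammalian epidermis cholesterol, ceramides and very long chain fatty acids form the permeability barrier.

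Every value below is a log2 ratio of cornea over epidermis, so that −1 stands for a level 2-fold lower in cornea, and probes of the same gene were averaged. That positive means higher in cornea is likely, though no source states it: the labels put cornea before epidermis, and of the cornea markers 5 of 5 measured lay above 0 and were called, with pax6a at 3.26, pax6b at 4.09 and the corneal proteoglycan gene kera at 1.57. These markers were chosen with earlier results of these data known. In the paper's RT-qPCR pax6a and pax6b were higher in cornea than in dermis, a tissue other than the epidermis measured here. Of 7 markers of trunk skin and scale, 4 were lower, among them the trunk patterning gene hoxc9a at −4.32 and the enamel matrix gene enam at −5.35, and the keratin genes krt4 and krt5 were higher at 0.94 and 1.18. Gene names depend on reading the probe grid in a rearranged order, worked out from these values. In that order the first and second probes of 5098 genes correlated at r = 0.361, against 0.0191 in the numbered order. Because the order came from the same values, the higher r is not an independent check of the names. The arrays of a repeat correlated between 0.390 and 0.515, and repeat means between 0.544 and 0.703, across features. The median SD between repeats was 0.31 for all genes and 0.37 for the 39 genes. A gene was called when its adjusted p in limma, over all 14462 genes, was under 0.05. In whole tissue, fewer cells of a type and less RNA per cell cannot be told apart.

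Most sterol synthesis genes were lower in cornea than in epidermis. Of the 39 genes, 19 were called lower, 5 higher and 15 were not called. Over all genes, 13.8 percent were called lower, 22.9 percent higher and 36.7 percent in either direction. The lower calls lay mostly in the 20 genes of the mevalonate and sterol arms, where 14 were called lower and 1 higher, with a median of −1.19. Among the 14 are cyp51, whose probes were called in opposite directions (−2.94 and 1.26), and hmgcs1, with probes at −2.31 (called) and 0.57 (not called). In the other 19 genes 5 were called lower and 4 higher, with a median of −0.03, and the median over all genes was 0.03. At a difference of over 2-fold, 11 of the 20 arm genes were called lower, against 4.87 percent of all genes, and none of the 20 was called higher, against 10.3 percent. On all 8 arrays 12 of the 20 lay below 0, against 13.0 percent of all genes, and 1 lay above 0 on all of them, against 21.8 percent. Against a threshold of 2-fold in limma's TREAT test, 8 of the 20 and 10 of the 39 genes were called lower, against 1.15 percent of all genes, and 0 were called higher, against 3.75 percent.

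**Figure D1:**
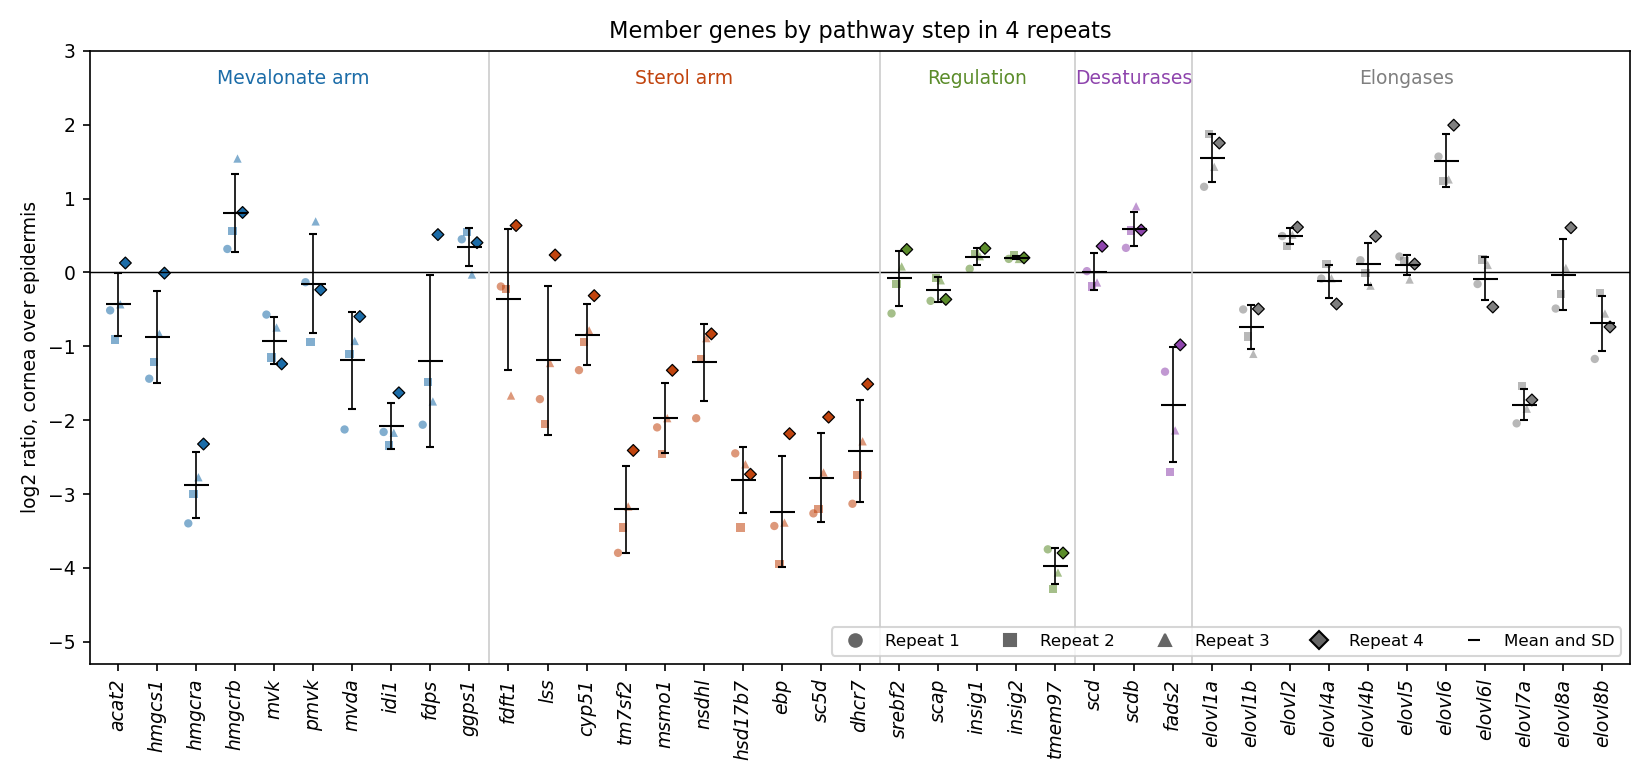
log2 ratio of cornea over epidermis (vertical axis) of the 39 genes in each of 4 biological repeats (symbols), ordered by pathway step, with the mean and SD over repeats as bars. The points of most sterol arm genes lie below 0, from lss to dhcr7, with repeat 4 (outlined diamonds) above the others in most of them, and the elongases spread to both sides of 0.

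**Figure D2:**
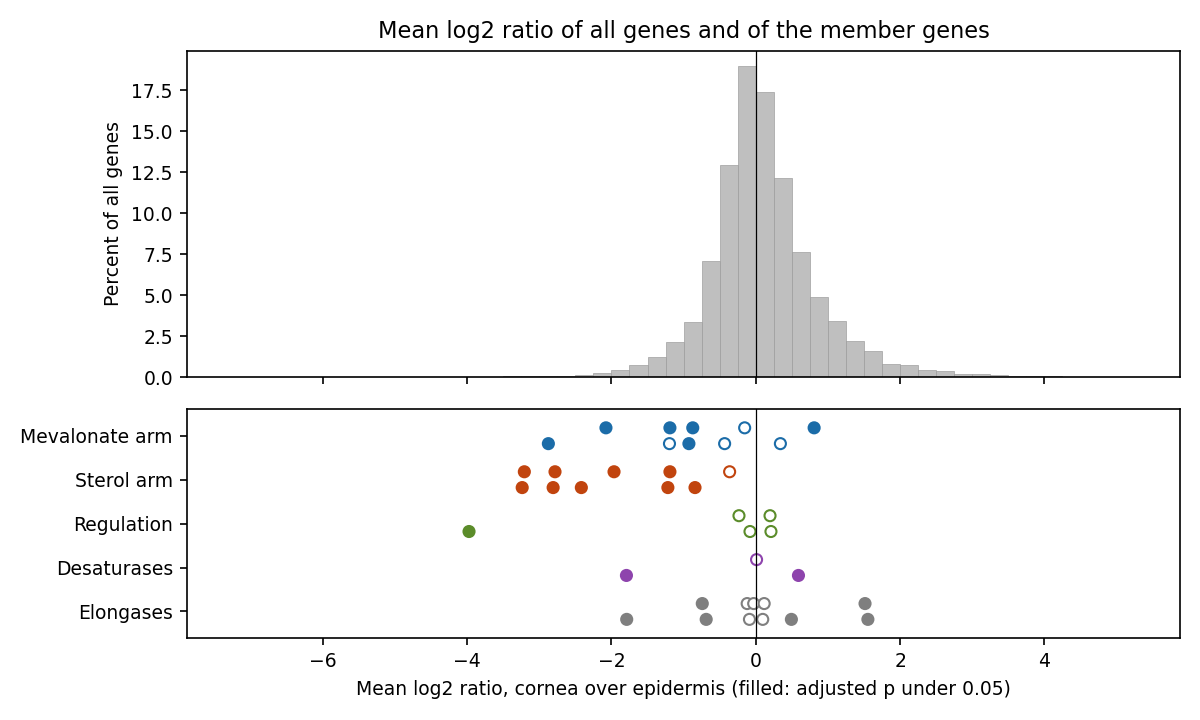
Percent of all 14462 genes by mean log2 ratio of cornea over epidermis (top), and the 39 genes by role on the same horizontal axis (bottom; filled, adjusted p under 0.05; points of a role are offset vertically for legibility). The 10 sterol arm genes lie between −3.24 and −0.36, while the median of all genes is 0.03.

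In the sterol arm 9 of 10 genes were called lower and none higher, and the median was −2.19. The largest difference was that of ebp, the isomerase that moves a ring double bond, with −3.43, −3.94, −3.39 and −2.18 in repeats 1 to 4. Its mean of −3.24 ± 0.75 (SD, n = 4, limma adjusted p = 0.000373) is a level 9.43-fold lower in cornea. The sterol reductase gene tm7sf2 had −3.80, −3.45, −3.17 and −2.41, with a mean of −3.21 ± 0.59 (adjusted p = 0.000219). Every repeat of both genes was more than 4-fold lower in cornea, and repeat 4 was the least negative.

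The gene of the ketosteroid reductase hsd17b7 had −2.45, −3.45, −2.60 and −2.73 in repeats 1 to 4, and its mean was −2.81 ± 0.45 (adjusted p = 0.000182). For the sterol desaturase gene sc5d the values were −3.26, −3.20, −2.71 and −1.96, with a mean of −2.78 ± 0.60 (adjusted p = 0.000343). The repeats of hsd17b7 came in another order than those of sc5d, with repeat 2 lowest and repeat 1 highest. The enzyme encoded by dhcr7 carries out the last reduction to cholesterol. This gene had −3.13, −2.74, −2.29 and −1.51, with a mean of −2.42 ± 0.70 (adjusted p = 0.000848) and a level 5.34-fold lower in cornea, and its probes agreed, with means of −2.44 and −2.40.

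The sterol methyl oxidase gene msmo1 had −2.10, −2.46, −1.97 and −1.33, with a mean of −1.96 ± 0.47 (adjusted p = 0.000635). The next enzyme in removing the methyl groups is encoded by nsdhl, which had −1.97, −1.18, −0.89 and −0.83, with a mean of −1.22 ± 0.53 (adjusted p = 0.00536). Both were below 0 in all repeats, msmo1 by over 2-fold in each and nsdhl in repeats 1 and 2 only. The lanosterol synthase gene lss, whose product closes the sterol rings, had −1.72, −2.05, −1.23 and 0.24, with a mean of −1.19 ± 1.01 (adjusted p = 0.0441). Repeat 4 of lss stood on the other side of 0, and its call was lost without repeat 1, 2 or 3 (adjusted p = 0.149, 0.132 and 0.109). The single probe of lss was not called in the limma fit over all features (adjusted p = 0.0615).

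The remaining sterol arm genes were cyp51, which encodes the lanosterol demethylase, and fdft1, which encodes squalene synthase at the entry of the arm. The mean of cyp51 was −0.84 ± 0.42 (adjusted p = 0.0127), and its probes had opposite signs. One averaged −2.94, with −3.43, −3.08, −2.88 and −2.39 in repeats 1 to 4, and the other averaged 1.26, with 0.78, 1.18, 1.31 and 1.76. Both probes were called, so the gene mean stands for neither of them, although both put repeat 1 lowest and repeat 4 highest. The single probe of fdft1 had −0.19, −0.23, −1.67 and 0.64, and its mean of −0.36 ± 0.96 was not called (adjusted p = 0.458).

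In the mevalonate arm 5 of 10 genes were called lower and 1 higher, with a median of −0.90. The lowest was hmgcra, a gene of HMG-CoA reductase, the rate-limiting enzyme of the pathway and the target of statins. It had −3.40, −3.00, −2.77 and −2.32 in repeats 1 to 4, with a mean of −2.87 ± 0.45 (adjusted p = 0.00017) and a level 7.33-fold lower in cornea. Its probes were both called lower but differed in size, at −4.90 and −0.85. The paralog hmgcrb was higher in cornea, with 0.32, 0.57, 1.54 and 0.81 and a mean of 0.81 ± 0.53 (adjusted p = 0.0264). The ranges of hmgcra and hmgcrb did not overlap, and hmgcra was below hmgcrb in 4 of 4 repeats with a difference of −3.68 ± 0.49 in log2 ratio, hmgcra minus hmgcrb. An exact two-sided sign-flip test of that difference gave p = 0.125, the smallest that 4 repeats allow, and 0.219 after adjustment over the 7 paralog pairs compared. The call of hmgcrb was lost without repeat 3 or 4 (adjusted p = 0.0657 and 0.0838).

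The isomerase gene idi1, whose product interconverts the isoprenoid units, had −2.16, −2.34, −2.17 and −1.63, with a mean of −2.08 ± 0.31 (adjusted p = 0.000235). The decarboxylase gene mvda, one step earlier, had −2.13, −1.11, −0.93 and −0.60, with a mean of −1.19 ± 0.66 (adjusted p = 0.0118). Repeat 1 of mvda lay apart from the other repeats, whereas the 4 values of idi1 were close together. The mevalonate kinase gene mvk was lower with a mean of −0.93 ± 0.32 (adjusted p = 0.00476). The gene of HMG-CoA synthase, hmgcs1, was lower with a mean of −0.87 ± 0.63 (adjusted p = 0.0319), made from a probe at −2.31 and another at 0.57 that was not called, and the call was lost without repeat 1, 2 or 3 (adjusted p = 0.105, 0.102 and 0.0835).

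Farnesyl diphosphate synthase, which makes the last intermediate shared by sterols and other isoprenoids, is encoded by fdps. It had −2.06, −1.49, −1.75 and 0.51 in repeats 1 to 4, with a mean of −1.20 ± 1.16 that was not called (adjusted p = 0.0655). Repeats 1 to 3 were all over 2-fold lower in cornea and repeat 4 was above 0, and without repeat 4 the mean was −1.77 (adjusted p = 0.00291). Repeat 4 was the highest in both probes, at −0.40 and 1.42. The other genes not called were acat2, whose product makes acetoacetyl-CoA, at −0.43, pmvk, the gene of phosphomevalonate kinase, at −0.15, and ggps1, which leads to geranylgeranyl diphosphate for protein prenylation, at 0.34. With the replicate as a block and a dye term, fdps was called lower (adjusted p = 0.0296) and ggps1 higher (0.0362). The 3 probes of acat2 were called in opposite directions, at −1.12, −1.10 and 0.92.

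Among the 58 probes of the 39 genes, 26 were called lower, 8 higher and 24 were not called, against 10.4 percent lower and 14.0 percent higher over all features. Of the 17 genes with more than 1 probe, 8 had probes more than 1 apart in mean log2 ratio (47.1 percent), against 29.8 percent of the 5098 genes with more than 1 probe. The median gap was 0.82 in the 17 genes and 0.59 in the 5098. The gap was widest in cyp51 and hmgcra. Whether the probes of a gene read different transcripts, or a probe is named wrongly, was not tested.

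**Figure D3:**
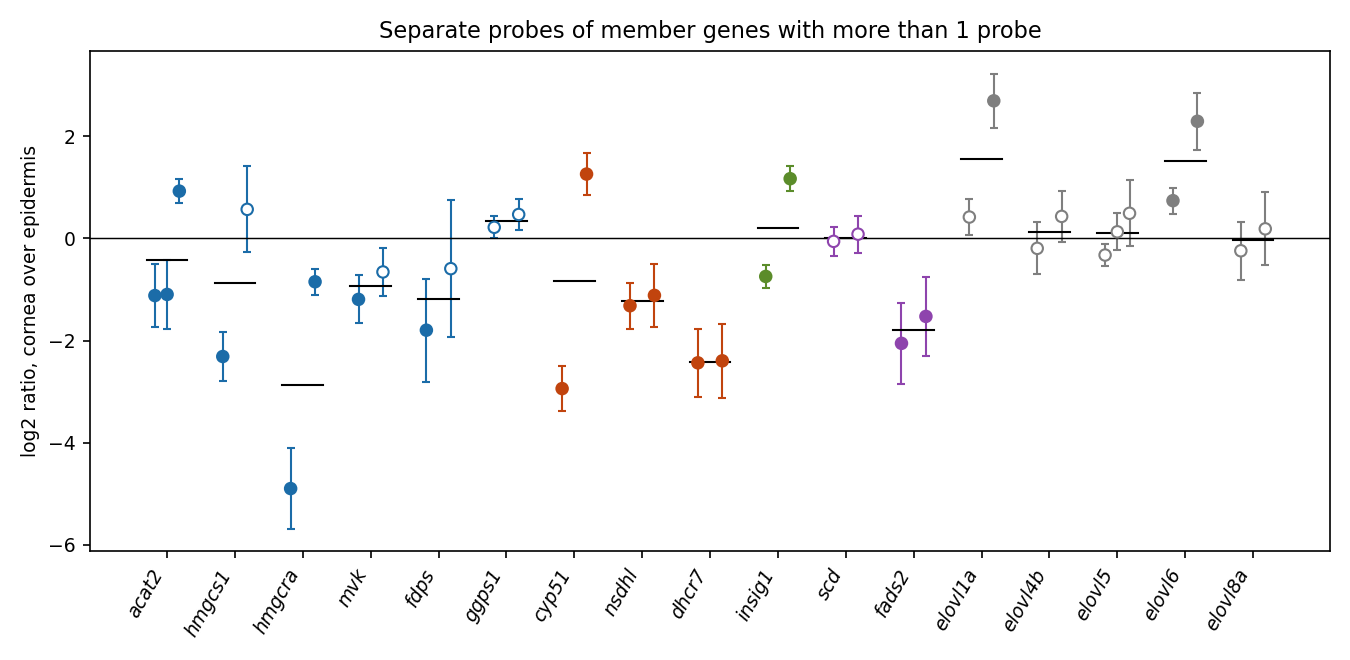
Mean log2 ratio of cornea over epidermis of each probe (points, with SD over 4 repeats; filled, adjusted p under 0.05) for the 17 genes with more than 1 probe, with the gene mean as a black bar. Probes of dhcr7, nsdhl and fads2 lie close together, and the called probes of cyp51, acat2 and insig1 lie on both sides of 0.

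Of the 5 genes of regulation and sterol sensing, tmem97 was called lower and the others were not called. Its product is an endoplasmic reticulum protein that binds the cholesterol transporter NPC1 and whose gene is switched on by SREBP2 in human cells. It had −3.75, −4.29, −4.06 and −3.80, a mean of −3.97 ± 0.25 (adjusted p = 4.14e-05) and a level 15.7-fold lower in cornea, the lowest of the 39 genes. All 4 repeats were close together, and repeat 4 was not apart from the rest. The gene of SREBP2 itself, srebf2, had a mean of −0.08 ± 0.37 (adjusted p = 0.747), and that of its escort scap had −0.23 ± 0.17 (adjusted p = 0.201). The genes insig1 and insig2 averaged 0.21 ± 0.11 and 0.20 ± 0.02. The probes of insig1 were called in opposite directions, at −0.75 and 1.17, so its mean near 0 is not a measurement of no difference.

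The desaturase genes went different ways. The gene fads2 encodes the desaturase for polyunsaturated fatty acids. It had −1.34, −2.71, −2.14 and −0.98, with a mean of −1.79 ± 0.78 (adjusted p = 0.0039) and a level 3.46-fold lower in cornea. All repeats lay below 0 and repeat 4 was the least negative. The stearoyl-CoA desaturases make monounsaturated fatty acids, and of their genes scdb was higher with a mean of 0.59 ± 0.23 (adjusted p = 0.0166) while scd was at 0.01 ± 0.25 and not called. The 2 genes differed by −0.58 ± 0.38, scd minus scdb (exact p = 0.125), and the call of scdb was lost without repeat 3 or 4 (adjusted p = 0.0766 and 0.0613) with cornea in Cy5 only (0.468), and in the fit on all arrays with the replicate as a block and a dye term (0.176).

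Of the 11 elongase genes 3 were called lower, 3 higher and 5 were not called, with a median of −0.03. That is 27.3 percent in each direction, against 13.8 percent lower and 22.9 percent higher over all genes. The lowest was elovl7a, of a family that lengthens saturated and monounsaturated fatty acids, with −2.04, −1.54, −1.84 and −1.73 and a mean of −1.79 ± 0.21 (adjusted p = 0.000235). Its 4 repeats lay within a narrow range and repeat 4 was inside it. The elongase elovl1b, which like its paralog belongs to the family that makes very long saturated chains, averaged −0.74 ± 0.30 (adjusted p = 0.0102). The other gene called lower was elovl8b at −0.69 ± 0.37 (adjusted p = 0.0212), a member of an elongase family known from fish, and its call was lost without repeat 3 or 4 (adjusted p = 0.0568 and 0.0773).

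The highest of the 39 genes was elovl1a, with 1.16, 1.88, 1.43 and 1.75, a mean of 1.55 ± 0.32 (adjusted p = 0.000661) and a level 2.94-fold higher in cornea. Its signal came mostly from one probe, at 2.69, while the other was at 0.42 and not called. Next was elovl6, whose product lengthens palmitate to stearate, with 1.57, 1.24, 1.26 and 1.99 and a mean of 1.51 ± 0.35 (adjusted p = 0.000851). Both probes of elovl6 were called higher, at 0.74 and 2.29. In all repeats both genes were over 2-fold higher in cornea. The gene elovl2, for polyunsaturated chains, was higher by less, at 0.49 ± 0.10 (adjusted p = 0.0184), and was not called without repeat 3 or 4 (adjusted p = 0.0762 and 0.0817). Its single probe was not called in the limma fit over all features (adjusted p = 0.0519).

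The paralogs of an elongase lay apart in 2 families. The difference of elovl1a minus elovl1b was 2.29 ± 0.47 and above 0 in 4 of 4 repeats, and that of elovl6 minus elovl6l was 1.60 ± 0.64, also in 4 of 4 (exact p = 0.125 each, the smallest possible). The pair of elovl8a and elovl8b differed by 0.66 ± 0.55 (exact p = 0.25), and elovl4a and elovl4b by −0.24 ± 0.48 (exact p = 0.5). The genes not called were elovl4a at −0.12, elovl4b at 0.12, elovl5 at 0.10, elovl6l at −0.09 and elovl8a at −0.03. The genes elovl4a and elovl4b belong to the family that makes the ultra-long chains of skin and retina.

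In most mevalonate and sterol genes called lower, repeat 4 was the least negative. In some of them, such as hmgcra and dhcr7, the values rose in order from repeat 1 to repeat 4, while mvk was most negative in repeat 4. In the 14 mevalonate and sterol genes called lower, the medians of repeats 1 to 4 were −2.14, −2.40, −2.07 and −1.42, while those of all 1994 genes called lower were −0.68, −0.88, −0.87 and −0.86. Repeat 4 was the least negative in 12 of the 14 (85.7 percent) and in 324 of the 1994 (16.2 percent). Repeat 1 also differed: it was the least negative in 2 of the 14 (14.3 percent) and in 973 of the 1994 (48.8 percent). Taking repeat 4 minus the mean of the other repeats, the median was 0.82 in the 14, above 0 in 13 of them, and −0.04 in the 1994. Of those 1994 genes, 44 (2.21 percent) reached 0.82, and of the 704 called lower by over 2-fold, as 11 of the 14 were, 38 did (5.40 percent). The 14 are counted among the 1994, and 0.82 is their own median, so many of them reach it by construction. The exceptions in the 14 were hsd17b7 and mvk, in which another repeat was the least negative. This pattern was noticed in these data and is given as a description with no test.

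The shift of repeat 4 was present in both arrays of that repeat. The median of the 14 genes was −1.48 with cornea in Cy5 and −1.32 with cornea in Cy3, while the corresponding medians of repeats 1, 2 and 3 were −2.08, −2.30 and −2.07 in Cy5 and −2.29, −2.54 and −2.02 in Cy3. Over the 20 arm genes, called or not, the median shift was 0.77, above 0 in 18. Repeat 4 was the highest in 15 of these 20 (75 percent), in 9 of the other 19 genes (47.4 percent) and in 25.3 percent of all genes. Among the related lists given below, it was highest in 9 of 19 genes of lipogenic supply and control and 7 of 13 of fatty acid oxidation. In each of the remaining lipid lists it was highest in 1 or 2 genes. Repeat 3 was on the same slide as repeat 4, and its median in the 14 genes was −2.07. The most negative repeat of the 14 was repeat 1 in 8 (57.1 percent), repeat 2 in 5, repeat 3 in 0 and repeat 4 in 1. In the 1994 genes it was repeat 1 in 19.1 percent, repeat 2 in 31.0, repeat 3 in 25.7 and repeat 4 in 24.2 percent. The part of the slide in the shift was not tested. Without repeat 4, 19 of the 39 genes were called lower and 2 higher. The spread of all genes in repeat 4 (SD 0.88) lay within that of the other repeats (0.84 to 0.92).

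**Figure D4:**
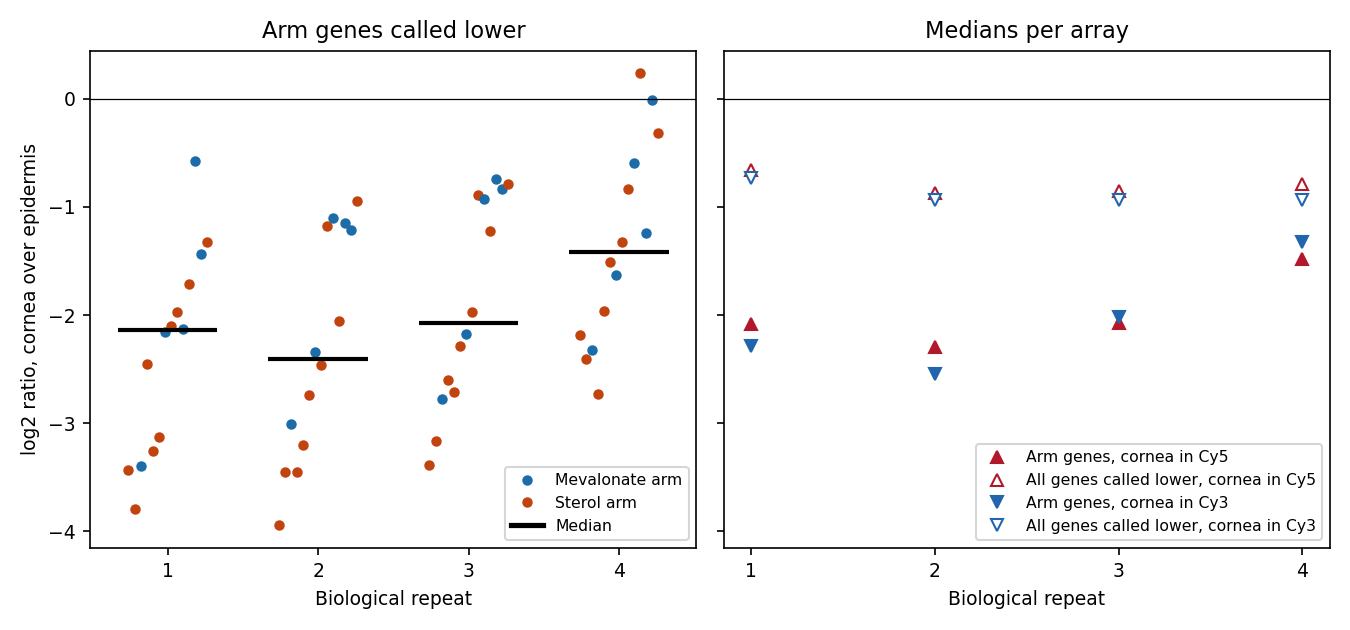
Left: log2 ratio of cornea over epidermis of the 14 mevalonate and sterol genes called lower (points) in the 4 repeats, with their median (bar). Right: the medians of these genes (filled) and of all 1994 genes called lower (open) on each array, by dye of the cornea RNA. The filled symbols of repeat 4 lie highest in both dyes, at −1.48 and −1.32, and the open symbols do not.

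Markers of other cell types moved with repeat 4 in part, and over all genes repeat 4 was the highest in 25.3 percent. Of 6 measured photoreceptor genes 5 were highest in repeat 4, with list medians of 0.22, 0.07, −0.04 and 0.74 in repeats 1 to 4, and over all repeats 1 of them was called, gnat2 at 2.69. The median of 9 skeletal muscle genes was 0.83, 0.99, 0.87 and 1.56, although only 2 of the 9 were highest in repeat 4. For 7 trunk skin and scale genes it was −1.42, −2.68, −2.71 and −1.99, with none highest in repeat 4, and for 6 genes of mucous cells and ionocytes −0.60, −0.12, 0.04 and 0.23, with 2 highest in repeat 4. None of 7 pigment cell genes, 1 of 5 cornea genes, 2 of 5 adipocyte genes and 2 of 4 blood cell genes were highest in repeat 4. The part of these cells in the shift of repeat 4 was not tested.

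Over all repeats, markers of other cell types also differed between the tissues. Beside the 22.9 percent of all genes called higher and 13.8 percent called lower, skeletal muscle genes were higher in cornea in 6 of 9 and lower in 1 (pvalb2 at −0.68). Their median was 1.02, with a range from −1.17 to 3.04. Pigment cell genes were higher in 4 of 7 and lower in 1. Of the 9 adipocyte genes 5 were measured, of which adipoqb was higher at 0.86 and cfd lower at −1.55. Genes of mucous cells and ionocytes were called in both directions, 2 higher and 2 lower, with the mucous cell gene agr2 at −3.12. Their part in the lower ratios of the sterol genes was not tested.

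Genes around the pathway were called in both directions, with list medians nearer to 0. Of 8 measured related sterol genes, 2 were higher and 2 lower, with a median of −0.08. The protease gene mbtps1, whose product cuts SREBP to release the active factor, was higher at 1.02 ± 0.31 (adjusted p = 0.00297). Also called were mbtps2 at 0.45, stard4 at −0.84 and acat1 at −0.47. Of 9 genes of sterol transport and storage, 2 were higher and 2 lower, with a median of 0.09. The highest was osbpl2b, of the oxysterol-binding protein family, at 1.38 ± 0.65 (adjusted p = 0.00602). The other called genes were nr1h3 at 0.57, soat1 at −0.87 and abca1a at −0.57. These and the following lists are given by their counts, to be read beside the 13.8 percent of all genes called lower and 22.9 percent called higher.

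In lipogenic supply and control 4 of 19 genes were higher and 1 lower, with a median of 0.09. The highest was mid1ip1a, whose mammalian product promotes the activity of acetyl-CoA carboxylase, at 2.57 ± 0.34 (adjusted p = 0.000145). A gene of ATP citrate lyase, aclya, which supplies cytosolic acetyl-CoA to both pathways, was higher with 0.82, 0.89, 1.08 and 1.67 in repeats 1 to 4, a mean of 1.11 ± 0.39 (adjusted p = 0.00337). The acyl-CoA synthetase gene acsl4a was lower at −1.19 ± 0.64 (adjusted p = 0.0107).

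Of 7 partners of the elongases in the elongation cycle 2 were lower and none higher, with a median of −0.30. The reductase gene hsd17b12a was at −0.43, only just under the call threshold (adjusted p = 0.0499). The dehydratase gene hacd3 was at −0.63 (adjusted p = 0.0129). Glycerolipid synthesis had 1 higher and 1 lower of 9. Ceramide and sphingolipid genes had 3 higher and none lower of 9, with a median of 0.28, among them sptlc1, a subunit of the first enzyme of the route, at 1.60 ± 0.47 (adjusted p = 0.00132), and the ceramidase gene acer1 at 1.12 ± 0.39 (adjusted p = 0.00351).

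Fatty acid oxidation genes were higher in 7 of 13 and lower in none, with a median of 0.46. The acyl-CoA dehydrogenase gene acadm was at 2.33 ± 0.40 (adjusted p = 0.00025) and cpt1aa, which encodes the carnitine transferase that admits fatty acids to mitochondria, at 1.56 ± 0.50 (adjusted p = 0.00175). The trifunctional protein gene hadhb was at 1.01 ± 0.25 (adjusted p = 0.00214). Repeat 4 was highest in 7 of the 13, against 25.3 percent of all genes and 2 of the 9 skeletal muscle genes. The list medians in repeats 1 to 4 were 0.45, 0.20, 0.45 and 0.65 for oxidation, and 0.83, 0.99, 0.87 and 1.56 for muscle. Muscle cells also use the oxidation genes, and the part of the higher muscle markers in the ratios of those genes was not tested.

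**Figure D5:**
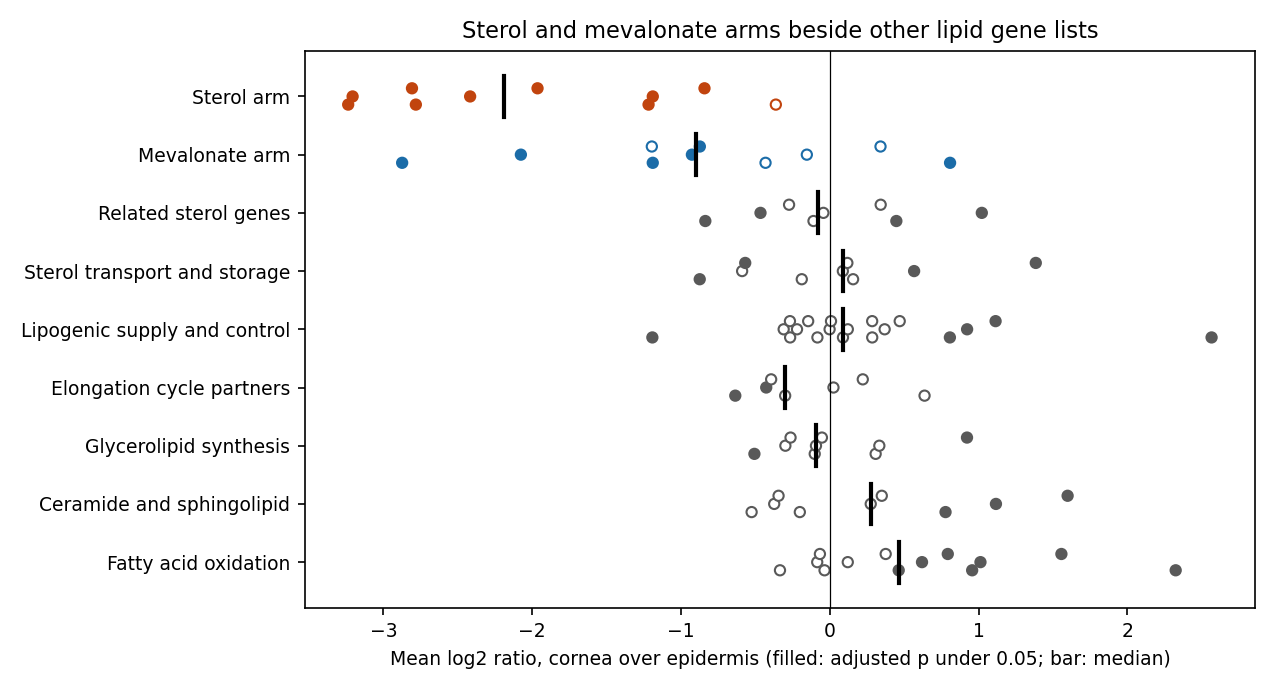
Mean log2 ratio of cornea over epidermis of each gene (points; filled, adjusted p under 0.05) in the lists of lipid genes, with list medians as bars. The sterol arm has its median at −2.19, and the related lists have medians between −0.30 and 0.46.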

How the data were processed

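The deposited log2 ratios, 1 per feature and array, were made by the authors from GenePix scans with limma (version not given in the sources used here): background correction by the minimum method, normalization within arrays and quantile normalization of average intensities between arrays. Base 2 is limma's convention. Dye-swapped arrays correlated above 0, so the ratios had been turned to 1 order of tissues and no sign was changed. Spot intensities were not used here, so probes not above background or saturated are unknown, and the number of arrays limits the precision.

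Values were matched to probe names after a rearrangement of the probe grid of 85 columns, as described above. Of the 39 genes, 38 matched RefSeq by gene ID with the same symbol, all but elovl6l. Both arrays of a repeat carried the same extracts, so their mean was used (n = 4). The fit was made in R 4.3.3 with limma 3.58.1 (eBayes after lmFit, mean against 0, two-sided, Benjamini-Hochberg adjustment over all genes, or over all features for probes). The call threshold was 0.05. The repeat number ties the dye-swapped arrays by design. As a check, the arrays' departures from their dye orientation's mean had r of 0.0213 to 0.0899 in the same repeat, and of −0.0924 to 0.0370 in different repeats. These ranges overlapped. In 3 of 4 repeats the array with cornea in Cy5 departed most like its own dye swap. The labels call the repeats replicates, and the paper describes its repeats as biological. The p-values measure the spread between these pools.

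Every one of the 39 genes is named. Those called with a mean beyond 1 have their value in every repeat. Related genes are named when called beyond 1, and a few others by choice after their values were seen. The genes and lists were chosen with earlier results of these data known. The fit was also run on simulated independent normal repeats with each gene's SD, and its outcome is not given here. Slide effects, dye effects and disagreement between probes were not simulated. Alternatives were TREAT against 2-fold, the threshold of 0.001 with 2-fold, single dyes and slides, slide as block, a replicate block with dye term, left-out repeats, scaling, and other summaries of probes. Python 3.11.15 with numpy 2.4.6, pandas 2.3.3 and scipy 1.17.1, matplotlib 3.10.9 and the R package data.table (version 1.17.8) were used.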

Additional observations from a re-analysis of the deposited data

How the results depend on the processing

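All 24 called genes kept their direction and call with slide as a block, array median centring, scaling to 1 median absolute deviation and the median over probes. With a replicate block, fitted with a dye term on all arrays, 20 of the 39 genes were called lower and 5 higher: fdps (−1.20, adjusted p = 0.0296) and ggps1 (0.34, 0.0362) were gained and scdb was lost (0.176). The block did not turn any called gene. The median over probes called acat2 lower at −1.07 (adjusted p = 0.0168). With the probe of smallest variance, elovl1a lost its call at 0.42 (0.0881) and fdps was called lower at −1.80 (0.0095). That setting turned cyp51 to 1.26 (adjusted p = 0.00214), acat2 to 0.92 (0.00238) and insig1 to −0.75 (0.00527). Among genes not called, the sign also turned for scd (−0.44 with cornea in Cy5 only, −0.0871 on slide 1, −0.0112 with scaling, −0.0597 with the probe of smallest variance), elovl8a (0.37 with cornea in Cy3 only, 0.33 on slide 2), pmvk (0.00983 with cornea in Cy3 only, 0.23 on slide 2), elovl4a (0.0149 on slide 1), elovl6l (0.00838 on slide 1), srebf2 (0.20 on slide 2) and elovl5 (−0.0506 with the median over probes, −0.33 with the probe of smallest variance). The difference insig1 minus insig2 was −0.16 with cornea in Cy5 only. The causes were not tested.

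Counts of the 39 genes called higher were 3 with cornea in Cy3 only, 2 on slide 1, 3 on slide 2, 0 under TREAT and 2 at the threshold of 0.001 with 2-fold. Counts called lower were 13 on slide 2, 10 under TREAT and 10 at that threshold. Besides elovl2, elovl8b and scdb, calls were lost with single dyes or slides (adjusted p) for lss (Cy5 0.0556, Cy3 0.0823, slide 2 0.413, at −0.50), hmgcs1 (Cy3 0.139, slide 2 0.301, at −0.42), hmgcrb (Cy3 0.107, slide 1 0.321), cyp51 (slide 2 0.124), mvda (slide 2 0.0510), mvk (slide 1 0.0893) and elovl1b (slide 1 0.146, slide 2 0.0712). Probes called higher were 5 with cornea in Cy5 only, 2 on slide 1, 4 on slide 2, 2 under TREAT and 1 at the strict threshold, and probes called lower were 13 on slide 2, 13 under TREAT and 10 at the strict threshold. Over all genes, 639 were lower and 1400 higher on slide 1, 1224 and 2190 on slide 2, 166 and 543 under TREAT, and 315 and 960 at the strict threshold. With cornea in Cy3 only, 1651 of all genes were lower and 2817 higher.

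Leaving out each replicate in turn left 16 to 19 genes lower and 2 to 5 higher, with 2 higher without replicate 3 or 4. All genes called lower ranged between 1329 and 1879, lowest without replicate 3, probes called lower between 19 and 25, and probes called higher between 5 and 8. All genes called higher ranged between 2466 and 2975, lowest without replicate 4. Means ranged from −0.24 to 0.124 for elovl8a, −0.21 to 0.0783 for srebf2, −0.44 to 0.107 for pmvk, −0.69 to 0.0725 for fdft1, −0.00757 to 0.215 for elovl4b, −0.17 to 0.0393 for elovl6l and −0.104 to 0.0784 for scd, and the difference insig1 minus insig2 from −0.0254 to 0.0619. For the shift of repeat 4, alternatives chosen after seeing the data gave 0.72 with cornea in Cy5 only, 0.92 with cornea in Cy3 only, 0.81 with median centring and 0.78 with scaling.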
